A study of Arabidopsis thaliana with 33 samples.

Results

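The loci described here are non-coding genes of Arabidopsis thaliana that the count table lists as other_RNA, the annotation's class for long non-coding and other RNAs that are not ribosomal, transfer, nuclear or microRNA genes. The members were the 200 such loci with the largest raw count summed over all 33 libraries, out of 394 other_RNA loci and 33400 loci in all. The members were thus chosen by their summed counts, which are given as a description. They ran from 78062 for the first locus to 1620 for AT2G31585 in the last place, and the first locus left out had 1607. A minimum sum of 100 was part of the rule and removed no locus, since 320 other_RNA loci passed it. RefSeq classed 145 of the members as lncRNA, 53 as ncRNA and 2 as antisense RNA. All 200 passed the filter on low counts and were tested.

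Hypocotyl explants of 7-day-old seedlings were sampled in 3 libraries for each of 11 groups, and hy5-2 is a mutant allele of HY5, the bZIP transcription factor that activates light-responsive genes. All seedlings, of both genotypes, were raised at 22 °C in continuous low light of 2 µmol per square metre per second, after several hours at 40 to stimulate germination. Col-0 and hy5-2 were sampled before culture (T0) from low light. Col-0 was sampled in low light and in high light of 40 µmol on the same scale after 4 days on callus-inducing medium (CIM, with 2,4-D at 0.5 mg/L and kinetin at 0.1 mg/L), and then after 4 or 8 days on shoot-inducing medium (SIM, with IAA at 0.15 mg/L and 2-iPA at 0.5 mg/L). The hy5-2 explants were cultured in high light only, so the effect of light within hy5-2 could not be tested. The contrasts of light and of hy5-2 in culture use the same Col-0 high-light libraries, and their values are given side by side without a test of their agreement. Total RNA went through a stranded mRNA kit. Each library is an explant sample of mixed cell types, and fewer cells of a type cannot be told apart from less RNA per cell.

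Long non-coding RNAs lack a long open reading frame, and many in plants are transcribed on the strand opposite to a protein-coding gene. Others are precursors. A TAS transcript is cut under the guidance of a microRNA, copied into double-stranded RNA by RDR6 with SGS3, and diced by DCL4 into trans-acting siRNAs. TAS1 and TAS2 are cut through miR173, and their siRNAs target genes of pentatricopeptide-repeat proteins and others. TAS3 is bound by miR390 in the Argonaute AGO7, and its siRNAs target the auxin response factors ARF2, ARF3 and ARF4.

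The sites below are the best matches to the miRNA within the TAS members, which were taken by their symbols and not picked out by the search. For TAS3 the best 2 matches are shown. The other members were searched too, for comparison, so that all 200 were scanned. Sequences are from RefSeq (TAIR10.1, whose nuclear chromosomes are those of TAIR10). In the miRNAs the capitals are the seed, bases 2 to 8. In the sites the capitals are bases that do not pair with the miRNA, with G:U pairs counted as unpaired.
miR173-5p, chr3:8236161-8236182, plus strand: tTCGCTTGcagagagaaatcac
TAS1A site, chr2:11722081-11722102, minus strand: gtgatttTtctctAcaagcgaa
TAS1B site, chr1:18549660-18549681, minus strand: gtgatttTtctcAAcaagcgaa
TAS1C site, chr2:16537890-16537911, minus strand: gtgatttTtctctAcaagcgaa
TAS2 site, chr2:16539991-16540012, minus strand: gtgatttTtctctCcaagcgaa
miR390a-5p, chr2:16061971-16061991, plus strand: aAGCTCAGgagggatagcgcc
TAS3 site 1, chr3:5862099-5862119, plus strand: ggTgTtatccTATctgagctt
TAS3 site 2, chr3:5862343-5862363, plus strand: TTGTctatccctcctgagctA

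TAS1A, TAS1C and TAS2 had 2 unpaired bases against miR173 and TAS1B had 3, while the best match in each of the other 196 members had at least 6 (median 9). Both TAS3 sites had 5 unpaired bases against miR390, and the other 199 members had at least 7 (median 9). The TAS1 loci share 81.6 to 86% of their aligned bases with each other and 66.4 to 68.5% with TAS2, so reads could be split among them, and the sources used here do not say what was done with reads that align to more than 1 place.

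One further member, AT4G13495 (chr4:7842967-7846774, plus strand), spans 3 microRNA sequences, shown because its level differed with light and genotype as described further on. The capitals again mark the seed, and the 3 seeds differ from each other.
miR5026, chr4:7844612-7844632, plus strand: aCTCATAAgatcgtgacacgt
miR850, chr4:7845756-7845777, plus strand: tAAGATCCggactacaacaaag
miR863-5p, chr4:7846644-7846664, plus strand: tTATGTCTtgttgatctcaat

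Library totals ran from 7235763 to 21184356 counts with a median of 10062479, of which protein-coding loci held 99.06% and the members 0.480%. The members took 0.618 to 0.642% of each of the 6 T0 libraries, against 0.425 to 0.505% of each of 27 from culture, with no overlap. Levels are CPM, read counts scaled to library depth by TMM, as mean ± SD with n = 3, and differences are log2 with their SE from edgeR's quasi-likelihood test, called at a Benjamini-Hochberg adjusted p under 0.05 over the 20842 loci tested. HY5 averaged 2.64 to 3.51 CPM in the hy5-2 groups and 8.71 to 44.02 CPM in the Col-0 groups. The root meristem markers PLT1, PLT2 and WOX5, which callus expresses, summed to 0.131 to 0.942 CPM in the Col-0 T0 libraries and 100.5 to 115 CPM on CIM in low light. The xylem markers XCP1, VND7 and IRX3 summed to 243 to 279 CPM at T0, 66.8 to 89.9 on CIM, 233 to 308 at day 4 and 73.4 to 87.5 at day 8 of SIM in low light. These markers moved with the stage contrasts, and their part in the members' values was not tested.

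Most members lay across a coding gene. By start, end and direction, 150 of the 200 overlapped a protein-coding locus, 143 of them on the opposite strand alone, 5 on both strands and 2 on the same strand alone. Another 7 overlapped only non-coding loci, and 43 overlapped no locus and lay a median of 317 bp from the nearest coding one. With an overlap counted only from 50% of the member's length, 128 overlapped a coding locus and 67 overlapped none. The members were 162 to 7697 bp long with a median of 1571 bp. They lay on all 5 nuclear chromosomes, 61 of them on chromosome 1 and 32 to 39 on each of the others, with 98 on the plus and 102 on the minus strand.

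The counts of overlapping loci on opposite strands followed their nesting. The 38 members that lay wholly inside a coding locus of the opposite strand had at most as many counts as that locus in 1254 of 1254 library values, at 17.2 to 99.1% of its total (median 78.4%). The 33 coding loci that lay wholly inside a member had at most as many counts as the member in 1089 of 1089 values. Among 23 members that held 1 coding locus and overlapped no other, a median of 7.1% of the member's counts (0 to 83.5%) were not matched by counts of that locus. AT1G71528 and the coding locus inside it, AT1G71530, both had 5125 counts and were equal in 33 of 33 libraries. The sources used here give no strand setting for the counting. Sense and antisense RNA of these pairs cannot be told apart, and values of members that overlap a coding locus are set beside those of the coding locus they overlap most.

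Most of the largest members were pairs of this kind. AT5G06865 (chr5:2132197-2133746, minus strand) had 78062 counts and PGIP1, which codes for an inhibitor of fungal polygalacturonases, had 78045. AT3G05905 had 38969 and AT3G05900 had 38923. Among smaller members, AT3G51238 had 3985 against 3987 for F3H, the flavonoid enzyme flavanone 3-hydroxylase. The totals of 24 members lay within 2% of their coding partner's. The 10 largest members held 26.2% of all counts of the 200, and among these 10 only GUT15 and AT4G36648 overlapped no locus. Per kb of locus, their raw counts summed over the 33 libraries were 20003 and 20604, against 102235 for AT3G22121, which overlaps the cell wall protein gene CWLP and was the second largest member. The others of the 10 lay over coding loci too. AT4G39838 (46237 counts) overlaps AT4G39840, AT5G01215 (35695) overlaps AT5G01210, AT5G01595 (33420) overlaps FER1, AT1G28685 (30647) overlaps AT1G28680, and AT2G31902 (29004) overlaps AT2G31900.

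**Figure D1:**
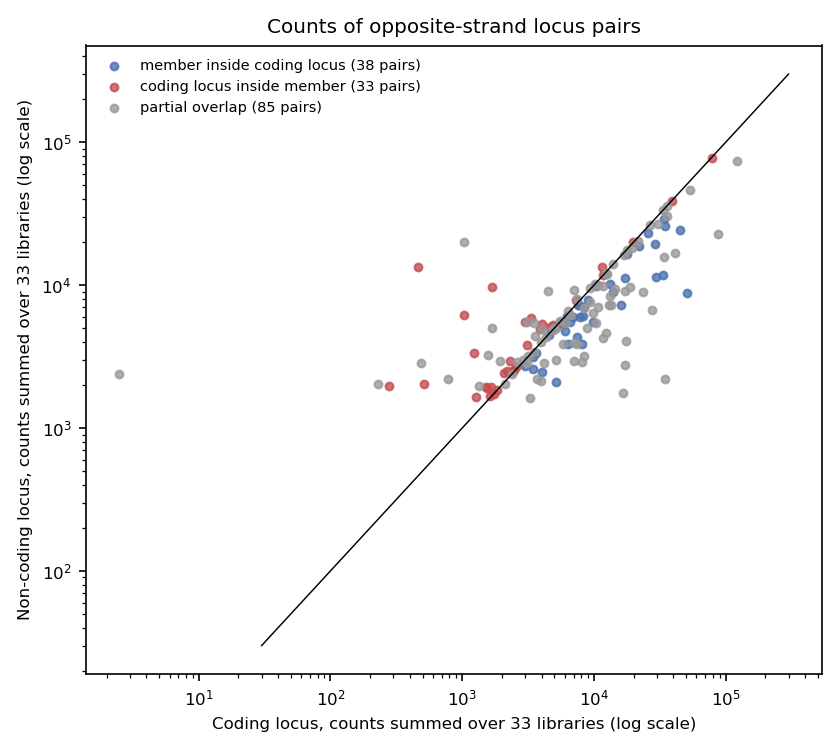
Raw counts summed over 33 libraries for 156 pairs of a member (vertical axis, log scale) and the opposite-strand coding locus it overlaps (horizontal axis, log scale), coloured by nesting: 38 members inside a coding locus, 33 coding loci inside a member and 85 partial overlaps. Members inside a coding locus sit on or under the line of equal counts, members that hold a coding locus sit on or over it, and 24 members lie within 2% of their partner.

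Members and coding partners moved together. Over 148 pairs, log2 differences of member and partner correlated with Pearson's r of 0.874 to 0.982 in the 10 contrasts, as a description of loci that share reads. In the 128 pairs with at least 50% overlap r was 0.940 to 0.996, and in the 20 with less it was 0.534 to 0.944. A limma test of the log2 ratio of member to partner, adjusted over 190 pairs of an other_RNA and a coding locus, called 31 of 148 member pairs between CIM and T0 in low light (18 ratios higher and 13 lower), against 22.1% of all 190 pairs. The 148 member pairs are part of the 190. Between day 4 of SIM and CIM the test called 6 of the 148, against 4.21% of the 190. Between day 8 and day 4 it called 0 against 0%, with 7 of 148 at an unadjusted p under 0.05. For light it called 2, 1 and 4 of the 148 on CIM and at days 4 and 8, against 1.05%, 0.526% and 2.11% of the 190. For hy5-2 it called 2 of the 148 at T0, 1 on CIM, 6 at day 4 and 3 at day 8. The shares of the 190 were 1.05%, 0.526%, 3.16% and 2.63%.

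**Figure D2:**
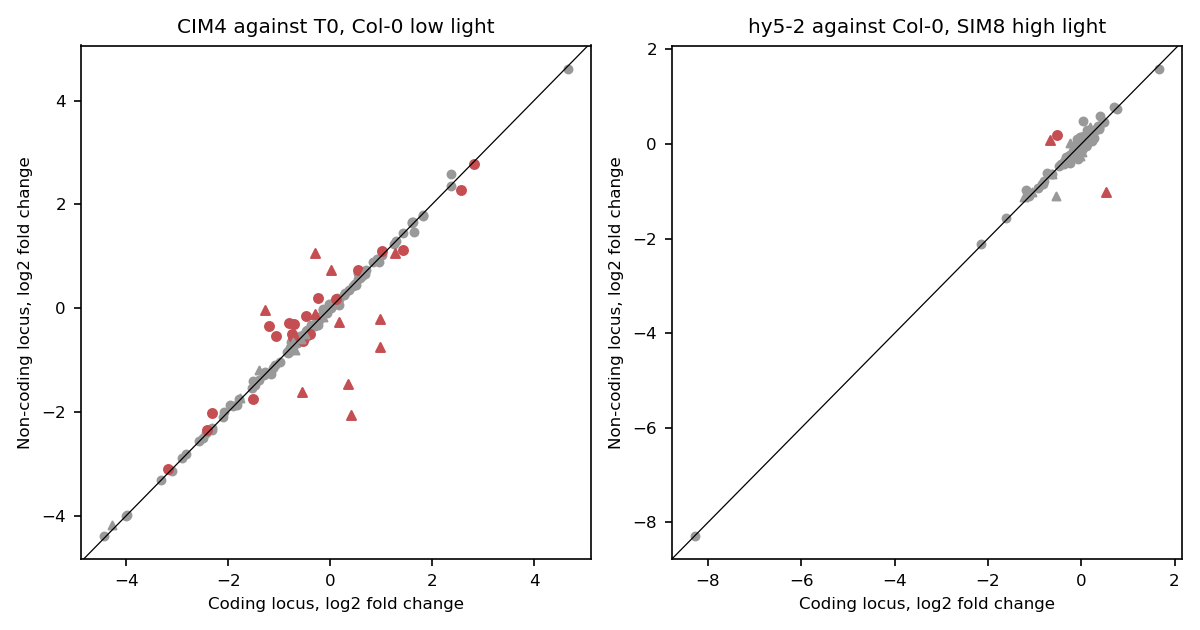
Log2 difference of each member (vertical axis) against that of its coding partner (horizontal axis) for CIM against T0 in Col-0 low light and for hy5-2 against Col-0 at day 8 of SIM in high light, for 148 pairs. Circles are pairs with at least 50% overlap, triangles pairs with less, and red marks the 31 and 3 pairs whose ratio was called. Most circles lie on the line of equal change, and the red points farthest from it are triangles. The lowest point of the second panel is AT3G51238 with F3H, whose fitted values rest on 3 counts in hy5-2.

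Among the called ratios, the largest change from T0 to CIM was that of AT2G26355 to AT2G26360. AT2G26355 (chr2:11220708-11221535, plus strand) shares 20 bp, 2.4% of its length, with the coding locus AT2G26360. Its libraries read 41.3, 41.5 and 41.4 CPM at T0 and 9.47, 9.26 and 10.9 CPM on CIM in low light. AT2G26360 read 7.67, 6.66 and 7.01 and 7.13, 10.5 and 10.3 CPM in the same libraries. The member fell by 2.06 ± 0.12 (adjusted p = 1.31e-16) while the partner rose by 0.41 ± 0.18 (adjusted p = 0.0386), and the ratio changed by -2.43 ± 0.19 (limma, adjusted p = 9.23e-10). In high light AT2G26355 stood at 16.6, 19.5 and 15.99 CPM on CIM in Col-0 and at 7.31, 8.06 and 6.74 CPM in hy5-2. At day 4 of SIM the libraries read 12.5, 17.7 and 14.7 CPM in Col-0 and 5.96, 6.38 and 5.87 CPM in hy5-2, and at day 8 14.9, 13.8 and 10.2 and 5.78, 6.55 and 6.86 CPM. All hy5-2 libraries lay under all Col-0 high-light libraries at each of these stages. It was lower in hy5-2 by log2 differences of -1.24 ± 0.12, -1.32 ± 0.14 and -1.02 ± 0.15 at the 3 stages (adjusted p at most 1.61e-06), where AT2G26360 differed by 0.08, 0.25 and 0.52. High light raised it on CIM by 0.80 ± 0.12 (adjusted p = 2.34e-05), while at day 8 of SIM the difference was -0.08 ± 0.13 (adjusted p = 0.694).

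AT4G38932, with 12.1% of its length in AT4G38930, fell by 1.45 ± 0.12 from T0 to CIM against 0.34 in the partner. AT5G01175 shares 19.7% with the peptide transporter gene PTR5 and rose by 1.07 ± 0.14, where PTR5 differed by -0.29. AT1G69587 holds CLE45, which codes for a signalling peptide of the phloem, in 23.9% of its length. It stood at 8.35 CPM at T0 and 8.07 CPM on CIM, a difference of -0.04 ± 0.17, while CLE45 fell by 1.28 ± 0.23 and the ratio rose by 1.24 ± 0.14 (limma, adjusted p = 3.53e-07). AT4G37553 has 54.8% of its 4158 bp over AT4G37560 and 22.4% over AT4G37550. It rose from 14.6 ± 0.664 CPM on CIM to 35.6 ± 1.96 CPM at day 4 of SIM (1.29 ± 0.09), where AT4G37560 stood at 3.28 and 3.55 CPM (0.11, adjusted p = 0.684). AT4G37550 rose by 1.45 ± 0.07 at the same step. The member's raw total was 9690 counts, against 1686 for AT4G37560 and 18893 for AT4G37550. Light lowered the ratio to AT4G37560 at day 4 and at day 8 by 0.63 ± 0.12 and 0.62 ± 0.12.

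Other ratios were called for light, for hy5-2 or on transfer to SIM. For light on CIM and at day 4, and for hy5-2 at T0, some repeats with 1 library left out called 0 ratios. High light lowered the ratio of AT1G17232 to AT1G17230, in which it lies whole, by 0.44 ± 0.10 on CIM (limma, adjusted p = 0.0253). The ratio of AT1G72855 to AT1G72860 fell by 0.16 ± 0.03 from CIM to day 4 of SIM. In hy5-2 the ratio of AT2G31751 to the glucosyltransferase gene UGT74D1 was higher by 0.20 ± 0.04 at T0, and so was that of AT5G01175 to PTR5 by 0.90 ± 0.19. At day 4 of SIM that of AT1G26218 to AT1G26220 was higher in hy5-2 by 0.29 ± 0.08 and that of AT4G28652 to AT4G28650 lower by 0.16 ± 0.04. AT4G37553 against AT4G37560 was higher in hy5-2 at days 4 and 8 by 0.62 ± 0.12 and 0.71 ± 0.12. TAS1C against AT2G39670 was lower in high light at day 8 by 0.70 ± 0.13 and higher in hy5-2 by 0.77 ± 0.13, where TAS1C itself differed by 0.08 and 0.08, without a call.

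The changes of members over a coding locus are given with those of the locus. Of the 150 members over a coding locus, 39 rose and 76 fell from T0 to CIM, 76.7% against 79.1% of all loci tested. In all loci 39.1% rose and 40% fell at this step. AT1G76892, inside the trihelix factor gene GT2, read 158, 158 and 152 CPM at T0 and 5.96, 9.16 and 7.06 CPM on CIM. It fell by 4.39 ± 0.10, and GT2 fell by 4.44 ± 0.09. AT2G41178, with 39.5% of its length over SIB2, fell by 4.18 ± 0.19 and SIB2, which codes for a sigma factor binding protein, by 4.28 ± 0.14. AT3G12502 read 1.88, 0.653 and 1.12 CPM at T0 and 26.3, 32.2 and 31.3 CPM on CIM, and rose by 4.61 ± 0.34 with 4.66 for HCHIB, a basic chitinase gene. AT2G37362 rose by 2.78 ± 0.12 and ABCG2, which codes for a transporter needed for suberin barriers, by 2.82.

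From CIM to day 4 of SIM, AT3G22121 went from 378, 351 and 365 CPM to 18.3, 18.6 and 22.04 CPM and fell by 4.21 ± 0.29, with -4.16 for CWLP. The epidermis markers ATML1 and PDF1 summed to 193 to 239 CPM on CIM and 5.68 to 13.1 CPM at day 4 of SIM in the same libraries, and their part in this result was not tested. AT2G26692, with 47.8% of its length over AT2G26690, fell by 3.29 ± 0.37, with -2.96 for AT2G26690. AT5G60022 lies over LAC17, which codes for a laccase of lignin formation. It read 25.2, 24.5 and 16.02 CPM on CIM, 61.9, 82.1 and 63.6 CPM at day 4 and 20.6, 20.9 and 20.9 CPM at day 8 of SIM in low light. It rose by 1.68 ± 0.17 and then fell by 1.74 ± 0.17, and LAC17 changed by 1.70 and -1.74. The xylem markers given above were high and low at the same stages.

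Of the 50 members that overlap no coding locus, 7 overlap other loci. AT1G60505, with 85.2% of its length over the pseudogene DRP4D on the opposite strand, had 5624 counts against 5064. AT1G60545, with 93.6% over the pseudogene DRP4B, had 6011 against 5687, so reads of these pairs cannot be told apart either. RefSeq's coding genes also left 49 of the 50 free, the exception being AT1G11592. RefSeq's other loci overlap some that overlap no locus in the count table. Among these, AT2G43375 overlaps 2 snoRNA genes, AT1G78865 a lncRNA, AT1G04425 a misc_RNA, GUT15 a pseudogene and TAS1B a microRNA gene. The share of all counts held by the 50 was 0.125 to 0.143% at T0 and 0.0841 to 0.102% in culture, without overlap between the 6 and the 27 libraries. At T0, 29 of the 50 had their highest group mean, 14 in Col-0 and 15 in hy5-2. Of the members over a coding locus, 65 of 150 were highest at T0, and of all 20842 loci tested 38.3% were.

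From T0 to CIM in low light, 50 of the 200 members rose and 106 fell, 78% against 79.1% of all loci tested. In all loci 39.1% rose and 40% fell, and the median log2 difference was -0.38 over the members and -0.0044 over all loci. Among the 50 free of coding loci 11 rose and 30 fell (median -0.54), and among the 43 that overlap no locus 11 rose and 24 fell. From CIM to day 4 of SIM 57 members rose and 31 fell, 44% against a background of 43.9% (21.5% higher and 22.3% lower). From day 4 to day 8 of SIM 10 rose and 26 fell, 18% against 14.9%, where 6.65% of all loci rose and 8.23% fell. The free members contributed 9 rises and 8 falls to the former and 3 rises and 5 falls to the latter. The shares called in either direction were near the background at each step, but the shares by direction were not. Of the 200 members, 25% rose and 53% fell from T0 to CIM. To day 4 of SIM 28.5% rose and 15.5% fell, and from day 4 to day 8 5% rose and 13% fell.

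**Figure D3:**
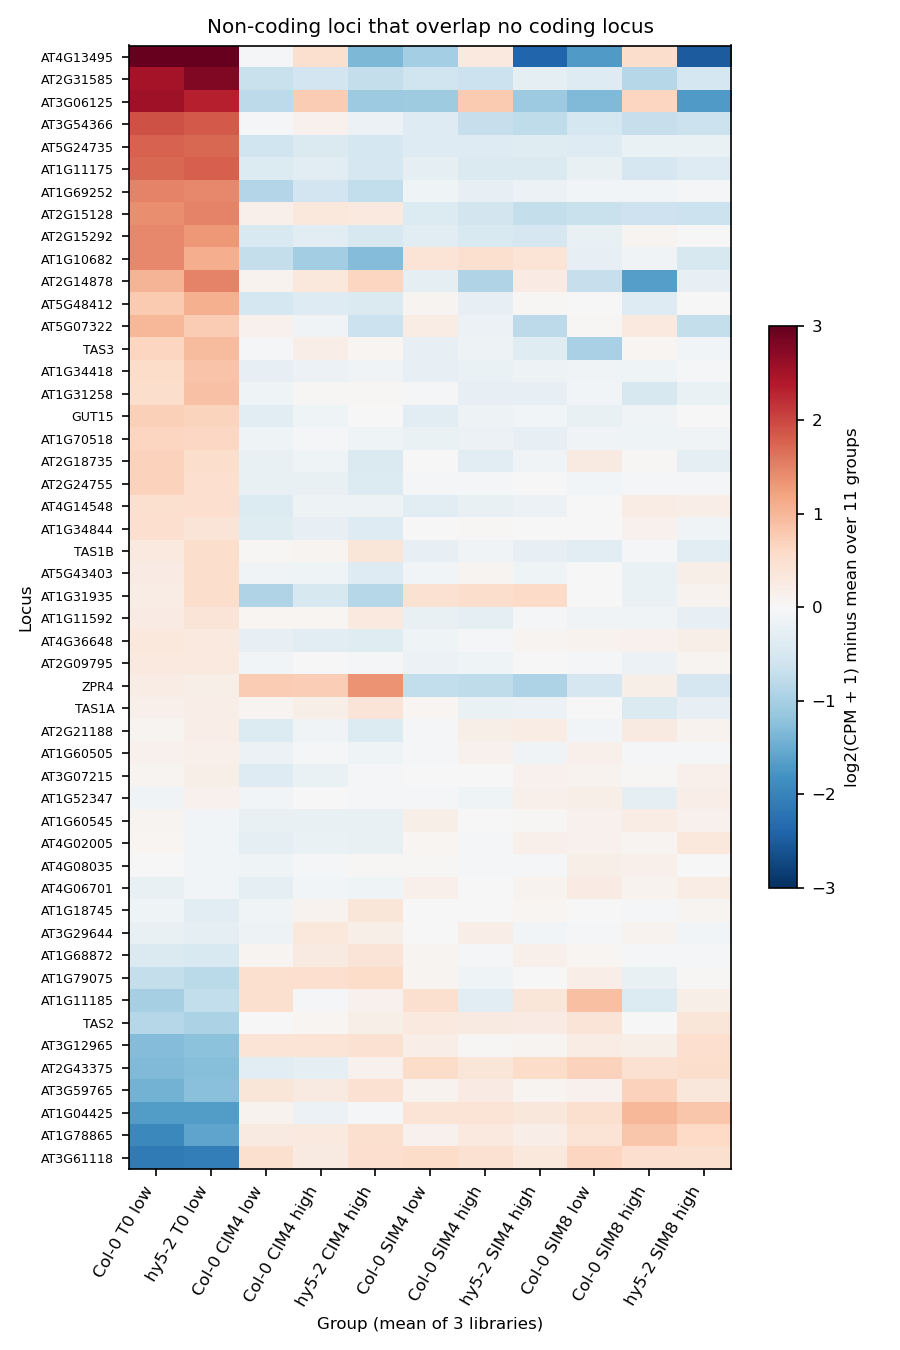
Level of the 50 members that overlap no coding locus (rows) in the 11 groups (columns), as log2(CPM + 1) of the group mean minus the row's mean over the 11 groups. The T0 columns of both genotypes stand apart from the cultured ones, and 29 of the 50 rows have their highest value there, against 38.3% of all loci tested.

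Among the 43 members that overlap no locus, the largest falls from T0 to CIM under the naming rule were those of AT3G06125, AT2G31585 and AT5G24735. AT2G31585 (chr2:13446002-13446729, plus strand) read 21.9, 19.3 and 24.5 CPM in Col-0 and 29.6, 23.96 and 26.3 CPM in hy5-2 at T0, and 0.850 to 2.94 CPM in the 27 cultured libraries. It fell by 3.83 ± 0.21 (adjusted p = 2.08e-17), and no other contrast called it. Its nearest coding locus, AT2G31590 at 99 bp on the opposite strand, stayed at or under 0.607 CPM. AT5G24735 (chr5:8468331-8469262, minus strand) read 56.5, 60.5 and 68.2 CPM at T0 and 11.7, 10.9 and 10.5 CPM on CIM, and fell by 2.49 ± 0.13 (adjusted p = 3.89e-18). It stayed at 10.4 to 17.96 CPM in culture, and AT5G24710, 157 bp away on the same strand, differed by -0.16 ± 0.06. AT2G15128 fell by 1.35 ± 0.13 from T0 to CIM and by a further 0.61 ± 0.14 to day 4 of SIM, and its neighbour AT2G15130 was at most 1.38 CPM.

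The largest rises among the 43 were those of AT3G61118, AT1G78865 and AT1G04425. AT3G61118 (chr3:22616581-22617427, minus strand) had 3 counts in all in the Col-0 T0 libraries and 4.79, 5.92 and 7.29 CPM on CIM. The ratio of CIM to T0 was 44.0 with a 95% interval of 14.8 to 215 from counting error alone. It then stayed at 3.61 to 7.29 CPM in all cultured libraries and was called in no other contrast. Its neighbour AT3G61117, 22 bp away on the same strand, was listed at 0 CPM in all 6 T0 libraries and reached at most 1.41 CPM in culture. AT1G78865 (chr1:29647738-29649951, minus strand) read 4.98, 4.18 and 4.302 CPM at T0 and 24.7, 22.3 and 26.5 CPM on CIM, and rose by 2.45 ± 0.14. AT1G78860, 238 bp away on the same strand, fell by 2.28 ± 0.20. AT1G04425 (chr1:1194187-1196889, plus strand) rose from 3.45 ± 0.844 to 14.2 ± 1.78 CPM (2.05 ± 0.18) while AT1G04420, 302 bp away on the same strand, fell by 1.10 ± 0.13. Both members thus changed opposite to their same-strand neighbours.

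On transfer to SIM, AT1G31935, AT1G10682 and AT2G43375 rose. AT1G10682 (chr1:3544991-3545471, minus strand) read 80.6, 124 and 120.3 CPM at T0, 24.9, 23.7 and 21.1 CPM on CIM and 49.6, 54.1 and 53.2 CPM at day 4 of SIM, so that it fell by 2.23 ± 0.13 and rose by 1.18 ± 0.13. At day 8 it read 39.4, 26.8 and 32.4 CPM, a fall of 0.69 ± 0.12. Its raw counts per kb over the 33 libraries, 32137, exceeded those of GUT15 (20003), and its neighbour PGP10 was at most 0.236 CPM. AT1G31935 (chr1:11469482-11470010, plus strand) read 2.805, 2.67 and 2.58 CPM on CIM and 7.76, 8.99 and 8.77 CPM at day 4, and rose by 1.68 ± 0.14. AT1G31940, 45 bp away on the opposite strand, rose by 0.33 ± 0.10. AT2G43375 rose from 7.08 ± 1.26 to 14.1 ± 1.74 CPM (0.99 ± 0.13), and its neighbour AT2G43386 reached at most 0.098 CPM.

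Between day 4 and day 8 of SIM, AT1G78865 rose by 0.31 ± 0.10 (adjusted p = 0.0227) and AT4G36648 by 0.23 ± 0.07 (adjusted p = 0.0157). Neither call held in every repeat with 1 library left out. Without the third low-light library of day 4, AT1G78865 stood at 0.25 (adjusted p = 0.158) and AT4G36648 at 0.19 (adjusted p = 0.124). Without the third of day 8 they stood at 0.25 (adjusted p = 0.139) and 0.18 (adjusted p = 0.128). Without the second of day 8, AT1G78865 stood at 0.31 (adjusted p = 0.0736).

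GUT15 (AT2G18440, chr2:7994941-7997239, minus strand) is the Arabidopsis counterpart of a tobacco gene isolated for its unstable transcript. It read 187, 206 and 229 CPM in Col-0 and 196, 198 and 213 CPM in hy5-2 at T0, and 98.9, 98.8 and 107 CPM on CIM in low light. It fell by 1.03 ± 0.07 (adjusted p = 1.25e-14), to less than any T0 library, and lay between 96.4 and 132 CPM in all 27 cultured libraries. Of the 10 contrasts only this one called it, and the other log2 differences ranged from -0.03 to 0.20. AT4G36648 (chr4:17280528-17282730, minus strand) fell by 0.58 ± 0.07 at the same step, and its neighbour PBRP, a TFIIB-related factor gene, rose by 1.11 ± 0.11.

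Of 15 RNA decay genes listed for comparison (the nonsense-mediated decay factors UPF1, UPF2 and UPF3, XRN exonucleases, decapping factors, and exosome subunits with their helicases), 12 rose and 0 fell from T0 to CIM (edgeR, median 0.65). The exosome subunit gene RRP4 rose by 2.04 ± 0.14 and the nuclear exosome helicase gene HEN2 by 1.04 ± 0.06. Of all loci tested, 39.1% rose and 40% fell at this step. From CIM to day 4 of SIM 0 of the 15 rose and 6 fell, against 21.5% and 22.3% of all loci. The further calls were 4 in light at day 8, all lower, and 3 and 1 in hy5-2 on CIM and at day 4, all higher. In these contrasts 11.6% of all loci were lower, and 6.37% and 10.4% were higher.

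The 5 TAS loci did not move as 1 group. From T0 to CIM, TAS2 read 17.8, 17.4 and 18.01 CPM and then 34.5, 32.4 and 30.4 CPM, and rose by 0.87 ± 0.10 (adjusted p = 1.19e-09). TAS1C read 10.9, 10.5 and 12.3 and 17.997, 16.7 and 20.7 CPM and rose by 0.73 ± 0.14 (adjusted p = 3.04e-05). Both had all CIM libraries over all T0 libraries. TAS1A read 12.3, 12.1 and 15.8 and 11.1, 12.98 and 14.4 CPM and TAS1B 8.48, 7.58 and 9.24 and 7.95, 6.203 and 6.76 CPM. Their differences were -0.04 ± 0.15 (adjusted p = 0.81) and -0.28 ± 0.13 (adjusted p = 0.0657), with overlapping libraries. TAS3 went the other way, from 22.9, 28.7 and 25.2 to 11.9, 16.99 and 17.6 CPM, and fell by 0.71 ± 0.15 (adjusted p = 7.73e-05).

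TAS1C (AT2G39675) shares 3.1% of its length with the coding locus AT2G39670, which differed by 0.02 at that step, and the ratio rose by 0.69 ± 0.13 (limma, adjusted p = 0.000267). On transfer to SIM, TAS2 rose further to 44.5, 38.7 and 39.2 CPM (0.33 ± 0.08, adjusted p = 0.00149). TAS1B was called lower there (-0.34 ± 0.13, adjusted p = 0.0318), with overlapping libraries. That call was lost with DESeq2 (adjusted p = 0.0834), with no filter on low counts (adjusted p = 0.0784), and without the first or the third CIM or the second or the third day-4 library (log2 differences of -0.25 to -0.36). TAS3 read 11.7, 15.4 and 13.02 CPM at day 4 and 7.14, 8.61 and 7.61 CPM at day 8 in low light, and fell by 0.78 ± 0.17 (adjusted p = 0.00101).

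High light at day 8 of SIM set the TAS loci apart again. TAS3 read 20.03, 13.3 and 16.8 CPM in high light, over the low-light libraries in each case, and was higher by 1.08 ± 0.17 (adjusted p = 7.67e-06). TAS2 read 46.6, 41.9 and 41.04 CPM under low and 30.5, 35.2 and 34.2 under high light, a fall of 0.37 ± 0.09 (adjusted p = 0.00103). In hy5-2 at that stage TAS2 read 41.1, 41.3 and 45.9 CPM and was higher than Col-0 in the same light by 0.36 ± 0.08 (adjusted p = 0.00167), while TAS3 read 18.1, 12.6 and 14.5 CPM and differed by -0.13 ± 0.15 (adjusted p = 0.596). TAS1A was called lower in high light at day 8 (-0.45 ± 0.16, adjusted p = 0.0295). Without the first or second low-light or the first or the third high-light library the TAS1A difference was -0.34 to -0.46 and no longer called (adjusted p of 0.0594 to 0.158). On CIM and at day 4 of SIM, light and hy5-2 left all 5 TAS loci without a call.

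ZPR4 (AT2G36307, chr2:15218040-15219415, minus strand) is a family member of small leucine-zipper proteins that bind and inhibit HD-ZIP III transcription factors, and is listed as other_RNA in the table. It read 16.1, 16.03 and 15.9 CPM on CIM and 5.098, 4.03 and 5.67 CPM at day 4 of SIM in low light, and fell by 1.70 ± 0.16 (adjusted p = 9.95e-11). Before that it had risen by 0.58 ± 0.16 from T0. At day 8 it read 6.17, 5.69 and 6.23 CPM under low and 7.89, 9.73 and 13.3 under high light in Col-0, and 5.33, 6.33 and 6.47 CPM in hy5-2. High light raised it by 0.79 ± 0.17 (adjusted p = 0.000674) and it was lower in hy5-2 by 0.78 ± 0.17 (adjusted p = 0.000803). On CIM it was the reverse in hy5-2, with 25.9, 21.9 and 25.3 CPM against 17.8, 13.6 and 15.2 CPM in Col-0, a rise of 0.65 ± 0.13 (adjusted p = 0.000379).

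**Figure D4:**
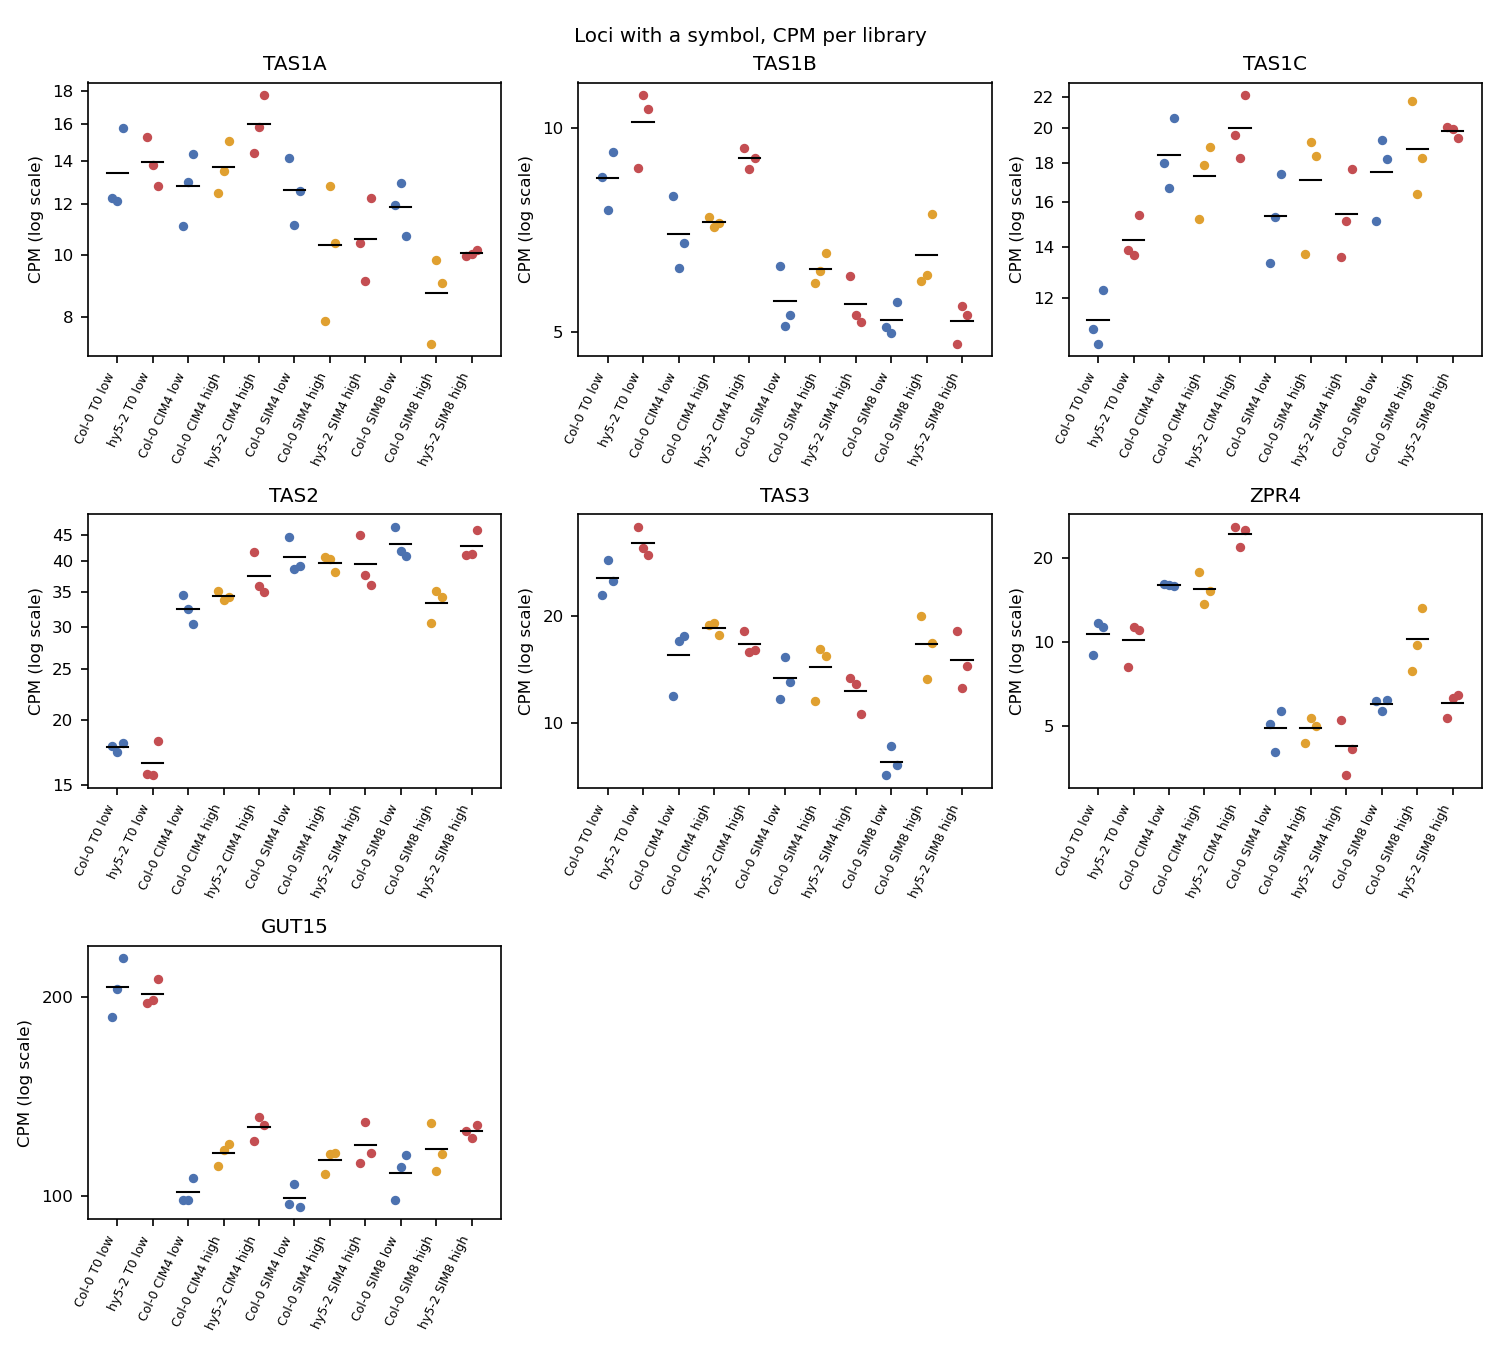
Level in CPM (vertical axes, log scale) of the 7 members with a gene symbol in the 11 groups, with 1 point per library and a bar at the group mean. Blue is Col-0 in low light, orange Col-0 in high light and red hy5-2. GUT15 and TAS3 are highest at T0, TAS2 is lowest there, and ZPR4 is lowest at day 4 of SIM.

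Of 16 genes of small RNA synthesis and of TAS siRNA targets listed for comparison, 13 were tested, and MYB75, MYB90 and MYB113 were not. From T0 to CIM 6 rose and 4 fell (median 0.08), where 39.1% of all loci tested rose and 40% fell. HEN1, the methylase that protects small RNAs, rose by 1.15 ± 0.11, SGS3 by 0.78 ± 0.09 and the TAS3 Argonaute gene AGO7 by 0.23 ± 0.09, while RDR6 fell by 0.35 ± 0.08. The TAS3 targets ARF2 and ARF4 fell by 0.52 ± 0.06 and 0.41 ± 0.08, and ARF3 differed by 0.08 ± 0.09. From CIM to day 4 of SIM 4 rose and 2 fell, with ARF4 up by 0.66 ± 0.08, ARF3 up by 0.42 ± 0.08 and AGO7 down by 0.38 ± 0.09. From day 4 to day 8, 3 rose and 0 fell, ARF3 and ARF4 among them (0.27 ± 0.08 and 0.39 ± 0.08). Of all loci, 21.5% rose and 22.3% fell to day 4, and 6.65% rose and 8.23% fell to day 8. The shares of all loci for light and hy5-2 are given in the next paragraph. High light called 0 higher and 1 lower (ARF4) on CIM and at day 4, and 2 higher (ARF2 and ARF3) and 0 lower at day 8. In hy5-2 the list had 0 calls at T0, 4 higher and 1 lower on CIM, 2 higher and 0 lower at day 4, and 3 higher and 2 lower at day 8 (edgeR). AGO1, which carries most miRNAs, was higher in hy5-2 at the 3 cultured stages, by 0.28, 0.26 and 0.35.

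High light called 20 of the 200 members on CIM (16 higher and 4 lower, 10% against 8.29% of all loci, of which 5.14% higher and 3.14% lower), 27 at day 4 of SIM (17 higher and 10 lower, 13.5% against 13.5%, of which 9.09% higher and 4.39% lower) and 66 at day 8 (47 higher and 19 lower, 33% against 27.6%, of which 16% higher and 11.6% lower). In hy5-2 against Col-0 the counts were 7 at T0 (4 higher and 3 lower, 3.5% against 5.12%, of which 1.98% higher and 3.14% lower), 34 on CIM (7 higher and 27 lower, 17% against 15.5%, of which 6.37% higher and 9.15% lower), 36 at day 4 (16 higher and 20 lower, 18% against 20.4%, of which 10.4% higher and 10% lower) and 43 at day 8 (14 higher and 29 lower, 21.5% against 23.5%, of which 10.1% higher and 13.4% lower). Counted in either direction these shares were near the background, the widest gap being 33% against 27.6% for light at day 8. By direction, 23.5% of members were higher there against 16%, and 9.5% lower against 11.6%. In hy5-2 on CIM, 3.5% were higher against 6.37%, and 13.5% lower against 9.15%. The change of the light difference itself, day 8 of SIM minus CIM, was called for 29 members (18 higher and 11 lower, 14.5% against 10.6% of all loci, of which 6.99% higher and 3.66% lower). The change of the hy5-2 difference was called for 27 (11 higher and 16 lower, 13.5% against 12.9%, of which 5.82% higher and 7.08% lower). Marker genes moved with the same groups. The shoot meristem markers WUS, STM and CUC1 summed to 9.34 to 13.4 CPM in low light, 18.6 to 29.6 CPM in high light and 11.4 to 13.1 CPM in hy5-2 at day 8, and the xylem markers to 73.4 to 87.5, 148 to 173 and 103 to 134 CPM. Their part in the members' differences was not tested. The 50 members free of coding loci gave 5, 4 and 13 calls in light and 2, 7, 5 and 10 in hy5-2. The median over the members lay between -0.05 and 0.06 in each of these contrasts. The count at T0 rested on single libraries. It was 12 without the first Col-0 library, 2 without the second, 3 without the third, and 3 without the first hy5-2 library. The count for light on CIM was 13 without the second or the third low-light library.

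AT3G06125 (chr3:1848848-1850596, plus strand) had the largest rise in high light among the 43 members that overlap no locus, under the naming rule, at all 3 cultured stages. It read 28.7, 22.9 and 26.5 CPM at T0 in Col-0 and 24.1, 23.03 and 19.7 CPM in hy5-2. In low light it read 0.701, 2.39 and 1.97 CPM on CIM, 1.27, 1.54 and 0.902 at day 4 and 0.726, 1.19 and 0.692 at day 8 of SIM. In high light Col-0 read 6.75, 8.28 and 5.64, 7.66, 7.84 and 5.598 and 6.68, 7.35 and 4.78 CPM, and hy5-2 read 1.096, 1.06 and 1.398, 1.65, 1.37 and 0.506 and 0.356, 0.764 and 0.196 CPM. Every Col-0 high-light library lay over every low-light and every hy5-2 library of its stage. Light raised it by 1.97 ± 0.27, 2.47 ± 0.28 and 2.77 ± 0.33 (adjusted p at most 3.09e-06). In hy5-2 it was lower by 2.52 ± 0.27, 2.49 ± 0.29 and 3.85 ± 0.38 (adjusted p at most 2.98e-08). In the hy5-2 libraries of day 8, 1 count was 0.0889, 0.109 and 0.098 CPM, so the last value rests on counts in the single digits. At T0 the hy5-2 difference was -0.23 ± 0.18 (adjusted p = 0.602). From T0 to CIM it fell by 3.88 ± 0.24 in low light. Its nearest coding locus, the stomatal lineage factor gene MUTE, lies 617 bp away on the same strand and was at most 0.159 CPM.

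AT4G13495, the locus of the 3 microRNAs shown above, overlaps only microRNA gene loci and fell outside the naming rule, which asks for no overlap at all. It was chosen after its values were seen. It read 158, 202 and 179 CPM in Col-0 and 129, 148 and 114 CPM in hy5-2 at T0. In low light it read 9.93, 9.45 and 8.96 CPM on CIM, 5.098, 3.62 and 4.25 at day 4 and 2.299, 2.53 and 2.08 at day 8. In high light Col-0 read 15.9, 13.1 and 12.8, 10.96, 14.4 and 11.2 and 15.3, 13.1 and 15.5 CPM, and hy5-2 read 4.97, 2.33 and 2.48, 0.941, 0.785 and 1.52 and 0.978, 0.764 and 0.9805 CPM. The 3 groups of each cultured stage did not overlap, with Col-0 in high light on top and hy5-2 lowest. From T0 to CIM it fell by 4.26 ± 0.14 (adjusted p = 2.65e-22), and to day 4 of SIM by a further 1.15 ± 0.20.

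The difference with light grew from 0.56 ± 0.16 (adjusted p = 0.0251) on CIM to 1.53 ± 0.18 and 2.64 ± 0.23 at days 4 and 8 of SIM, as the low-light level fell and the high-light level stayed at 10.96 to 15.9 CPM. The change of the light difference between CIM and day 8 was 2.08 ± 0.29 (adjusted p = 1.21e-05). In hy5-2, AT4G13495 was lower by 2.10 ± 0.19, 3.5 ± 0.25 and 3.98 ± 0.27 in culture (adjusted p at most 6.01e-10). At T0 it was lower in hy5-2 by 0.47 ± 0.11 (adjusted p = 0.00859), a call lost without the second Col-0 library (-0.37, adjusted p = 0.126) or the third hy5-2 library (-0.38, adjusted p = 0.0898). The call for light on CIM was lost without the second (0.57) or the third (0.52) low-light or the first high-light library (0.46). Raw counts of the MIR850 locus inside it summed to 463 in the Col-0 T0 libraries. At day 8 they summed to 3 in low light, 42 in high light and 5 in hy5-2. These reads are of long RNA, and mature microRNAs were not measured.

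AT2G14878 (chr2:6392167-6393042, plus strand) went the opposite way. It read 54.1, 55.5 and 59.9 CPM in Col-0 and 82.8, 74.6 and 76.3 CPM in hy5-2 at T0. In low light it read 30.7, 30.3 and 27.2 CPM on CIM, 20.3, 22.1 and 23.5 at day 4 and 16.2, 16.1 and 17.6 at day 8 of SIM. In high light Col-0 read 32.8, 35.6 and 33.999, 14.3, 15.3 and 12.7 and 8.38, 7.65 and 7.999 CPM, and hy5-2 read 42.5, 44.5 and 42.5, 34.5, 33.8 and 30.3 and 21.4, 24.3 and 22.4 CPM. On SIM the Col-0 high-light libraries were the lowest and the hy5-2 libraries the highest, without overlap. Light differed by 0.22 ± 0.07 on CIM (adjusted p = 0.0601), and lowered it by 0.66 ± 0.08 and 1.06 ± 0.10 at days 4 and 8. The change of the light difference from CIM to day 8 was -1.28 ± 0.13 (adjusted p = 4.22e-08). In hy5-2 it was higher at T0 and at all 3 cultured stages, by 0.47 ± 0.07, 0.34 ± 0.07, 1.24 ± 0.08 and 1.5 ± 0.10 (adjusted p at most 0.000751). Its neighbour AT2G14880, 289 bp away on the opposite strand, moved the other way on SIM, with light differences of 0.65 and 0.70 and hy5-2 differences of -0.74 and -0.85.

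AT1G11185 (chr1:3749510-3750035, plus strand) lies 30 bp from BFN1, a nuclease gene of senescence and developmental cell death on the opposite strand. It read 4.44, 4.05 and 3.66 CPM at T0 in Col-0. In low light it read 12.7, 12.4 and 14.2 CPM on CIM, 12.6, 13.4 and 13.6 at day 4 and 13.2, 19.4 and 20.98 at day 8 of SIM. In high light Col-0 read 8.09, 9.87 and 8.25, 6.84, 7.77 and 6.68 and 5.098, 7.75 and 7.17 CPM, and hy5-2 read 8.84, 11.2 and 9.98, 12.7, 11.8 and 11.3 and 9.87, 11.1 and 10.4 CPM. The low-light libraries were above the high-light libraries of Col-0 at each stage. Light lowered it by 0.59 ± 0.14, 0.90 ± 0.14 and 1.41 ± 0.15, and the call on CIM was lost without the third low-light library (-0.52, adjusted p = 0.0535). BFN1 differed with light by -0.59, 0.03 and 0.76, so that at day 8 the neighbours moved in opposite directions. In hy5-2 AT1G11185 was higher by 0.76 ± 0.15 and 0.63 ± 0.16 on SIM and differed by 0.19 ± 0.14 on CIM (adjusted p = 0.408).

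**Figure D5:**
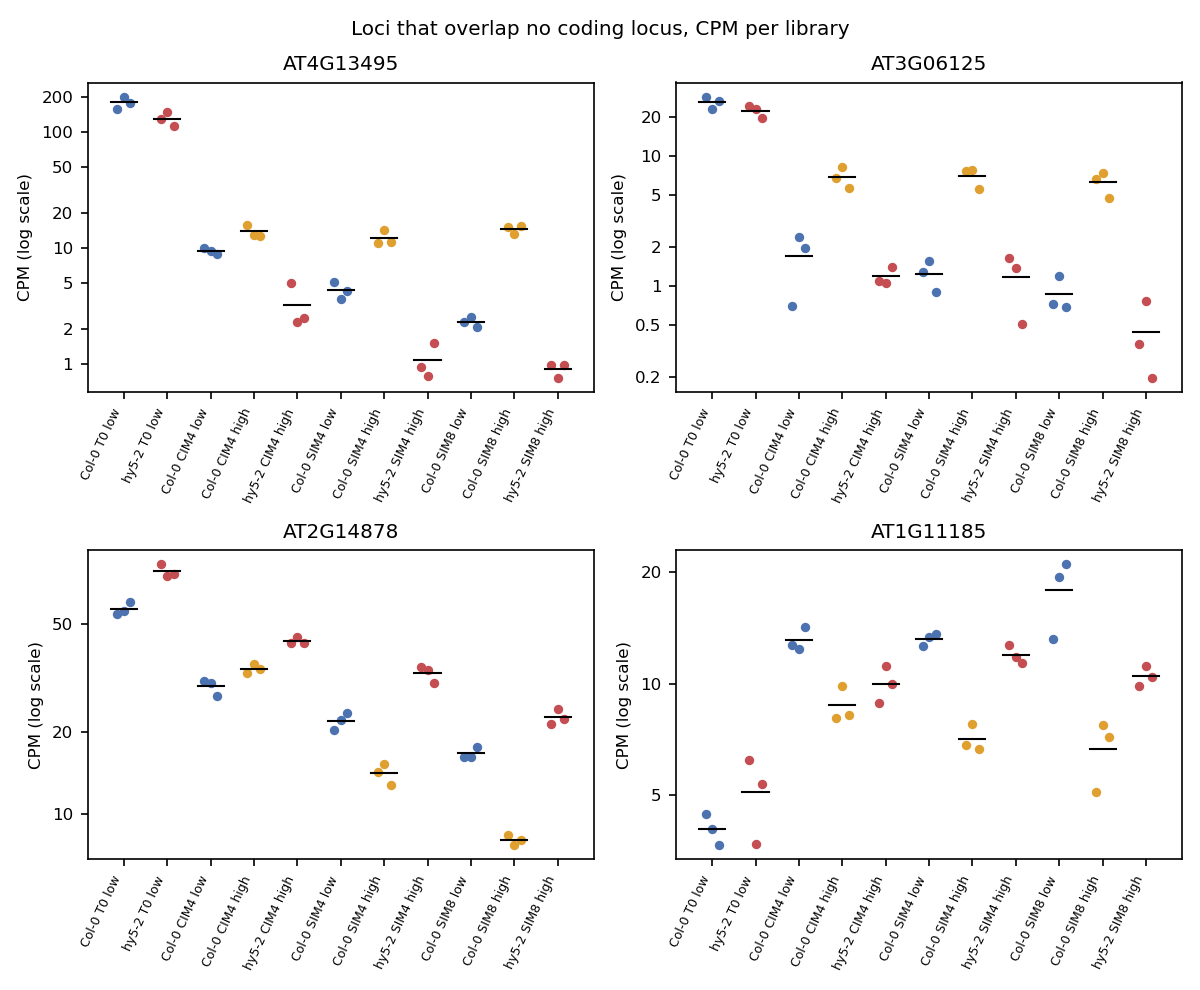
Level in CPM (vertical axes, log scale) of AT4G13495, AT3G06125, AT2G14878 and AT1G11185 in the 11 groups, with 1 point per library and a bar at the group mean. Blue is Col-0 in low light, orange Col-0 in high light and red hy5-2. On SIM the orange points of AT4G13495 and AT3G06125 stand over the blue and red ones, and those of AT2G14878 and AT1G11185 stand under them.

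AT5G07322 (chr5:2313119-2313563, minus strand) was lower in hy5-2 without a call for light. At day 8 of SIM it read 13.96, 10.9 and 11.4 CPM in Col-0 and 5.42, 6.11 and 5.098 CPM in hy5-2, a fall of 1.12 ± 0.21 (adjusted p = 9.58e-05). At day 4 it was lower by 0.69 ± 0.21 (adjusted p = 0.0147), and without the first Col-0 or the first or second hy5-2 library the difference was -0.58 to -0.64 and not called. Its light differences were -0.26 ± 0.19, -0.44 ± 0.18 and 0.26 ± 0.19. AT1G52347 was lower in high light at day 8 by 0.51 ± 0.16 and higher in hy5-2 by 0.53 ± 0.15. Without the third Col-0 high-light library these were -0.37 and 0.39 and were not called, and the former was also lost without the second low-light library (-0.41). AT1G52343, the nearest coding locus at 787 bp on the opposite strand, moved the same way at day 8. It differed by -0.73 ± 0.18 with light, and by 0.39 ± 0.18 in hy5-2 without a call. AT2G43375 was higher in hy5-2 on CIM by 0.48 ± 0.13, and by 0.38 (adjusted p = 0.0647) without the first hy5-2 library. AT1G31935 was higher in light on CIM by 0.56 ± 0.16 and lower in hy5-2 by 0.47 ± 0.15, and both calls were lost with DESeq2 (adjusted p of 0.103 and 0.0982). Both were lost with no filter on low counts too (adjusted p of 0.059 and 0.0643). Without any 1 of the 6 libraries the light difference was 0.52 to 0.59 and no longer called. The hy5-2 call was lost in 5 of 6 such repeats, with differences of -0.33 to -0.51.

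HY5 binds ACGT-containing sequences, of which the G-box CACGTG is the best known, so the promoters of AT3G06125, AT4G13495 and AT2G14878, whose levels differed with light and genotype on SIM, are shown, from 250 bases before to 50 after the annotated start (RefSeq, TAIR10.1). The capitals mark CACGTG in the first and ACGT in the last. Both motifs read the same on both strands, and each CACGTG holds an ACGT.
AT3G06125 promoter, chr3:1848598-1848897, plus strand: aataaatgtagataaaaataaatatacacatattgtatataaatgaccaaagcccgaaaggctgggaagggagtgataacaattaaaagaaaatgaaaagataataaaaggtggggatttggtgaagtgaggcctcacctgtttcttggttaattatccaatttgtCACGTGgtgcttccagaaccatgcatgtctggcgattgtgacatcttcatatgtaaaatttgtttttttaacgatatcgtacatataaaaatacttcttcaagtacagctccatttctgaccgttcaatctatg
AT4G13495 promoter, chr4:7842717-7843016, plus strand: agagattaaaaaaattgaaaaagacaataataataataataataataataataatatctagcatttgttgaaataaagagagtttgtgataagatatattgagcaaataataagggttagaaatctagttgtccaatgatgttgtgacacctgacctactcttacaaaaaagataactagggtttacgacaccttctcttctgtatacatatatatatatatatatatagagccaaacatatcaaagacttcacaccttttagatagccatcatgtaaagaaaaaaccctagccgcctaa
AT2G14878 promoter, chr2:6391917-6392216, plus strand: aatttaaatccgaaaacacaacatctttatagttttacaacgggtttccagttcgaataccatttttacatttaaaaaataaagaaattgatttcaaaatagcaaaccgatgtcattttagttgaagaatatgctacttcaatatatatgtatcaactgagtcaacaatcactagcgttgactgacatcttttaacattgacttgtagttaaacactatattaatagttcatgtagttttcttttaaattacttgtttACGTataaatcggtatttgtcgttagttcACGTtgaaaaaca

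The AT3G06125 window holds 1 CACGTG, whose first base lies at position -84 from the annotated start. The AT4G13495 window holds neither motif, and the AT2G14878 window holds 2 ACGT, both after its start. The AT1G11185 window holds 1 ACGT at -105, and that of AT5G07322 holds 3. CACGTG occurred in 17 of the 200 member windows (8.5%), in 6 of the 50 free of coding loci (12%), and in 7.21% of the 33322 windows of all loci. ACGT occurred in 49.5%, 58% and 48.1%. These are matches of letters, and binding was not measured.

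Members over a coding gene with large light differences are given with that gene. AT3G51238 (chr3:19025110-19026779, minus strand) shares 95.1% of its length with F3H on the opposite strand. On CIM its low-light libraries read 0.234, 0.191 and 0.228 CPM and its high-light libraries 6.598, 6.16 and 8.898 CPM. At day 4 of SIM it read 1.04, 1.14 and 0.709 CPM under low light, 53.8, 52.5 and 58.8 under high light and 0.0784, 0.0981 and 0.101 in hy5-2. At day 8 the values were 0.847, 1.11 and 0.115, 38.1, 29.99 and 34.1 and 0.267, 0 and 0 CPM. The Col-0 high-light libraries stood over all others at each stage. Light raised it by 4.98 ± 0.36, 5.84 ± 0.20 and 5.50 ± 0.24, and F3H by 4.98, 5.84 and 5.50. The 3 low-light libraries of CIM held 7 counts in all and those of day 8 held 22, and the third of day 8 held 1. In hy5-2 on CIM it was lower by 4.17 ± 0.30, where the hy5-2 libraries held 17 counts in all. At day 4 of SIM the 3 hy5-2 libraries held 3 counts in all against 2502 in Col-0, a ratio of 611 with a 95% interval of 209 to 2966. At day 8 they held 3 against 944, a ratio of 345 with an interval of 118 to 1675, and both intervals cover counting error only.

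AT2G23672 (chr2:10063245-10064004, plus strand) shares 81.4% of its length with YCF37, which codes for a photosystem I assembly protein. At day 8 of SIM it read 1.94, 1.82 and 2.19 CPM under low light, 19.8, 15.2 and 14.6 under high light and 4.71, 3.28 and 3.24 in hy5-2. Light raised it by 1.72 ± 0.25, 2.46 ± 0.22 and 3.06 ± 0.24 at the 3 stages, and it was lower in hy5-2 by 1.29 ± 0.22, 2.49 ± 0.23 and 2.12 ± 0.21. YCF37 differed by 1.72, 2.46 and 3.08 with light and by -1.28, -2.47 and -2.16 in hy5-2.

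AT5G01595 (chr5:227024-230013, plus strand) has 68.9% of its length over FER1, which codes for a plastid ferritin that stores iron. It was higher in light by 1.15 ± 0.09, 0.88 ± 0.08 and 1.36 ± 0.09, where FER1 rose by 1.15, 0.89 and 1.38. In hy5-2 it was lower on CIM by 0.54 ± 0.08 and at day 8 by 1.10 ± 0.09, while at day 4 the difference was -0.13 ± 0.08 (adjusted p = 0.339). FER1 differed by -0.55, -1.12 and -0.13 in that order. AT3G12502, over the chitinase gene HCHIB, went down in light. At day 8 it read 66.9, 93.1 and 95.7 CPM under low light, 13.6, 23.1 and 12.8 under high light and 51.6, 56.8 and 42.2 in hy5-2. Light lowered it by 1.01 ± 0.19, 1.56 ± 0.21 and 2.36 ± 0.18, and in hy5-2 it was higher by 1.71 ± 0.21 and 1.59 ± 0.19 on SIM. HCHIB differed by -2.37 with light and 1.66 in hy5-2 at day 8. AT1G67328 was lower in light at day 4 by 0.81 ± 0.20 and higher in hy5-2 by 1.05 ± 0.20, with -0.79 and 1.03 for AT1G67330. Without the third low-light library the light difference of AT1G67328 was -0.46 (adjusted p = 0.141).

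Smaller differences of the same kind complete the named pairs. AT4G38545 was lower in light at day 8 by 0.89 ± 0.08, with -0.91 for AT4G38540. In hy5-2, AT4G37432 and AT1G50659 were higher on CIM by 0.60 ± 0.11 and 0.42 ± 0.08, with 0.61 and 0.36 for their partners AT4G37430 and AT1G50660. AT4G37895 was higher in hy5-2 at day 8 by 0.78 ± 0.14, with 0.70 for AT4G37890. At T0, AT5G15845 was higher in hy5-2 by 0.74 ± 0.13, with 0.82 for COL1, a CONSTANS-like gene. These hy5-2 values at T0 come from seedlings in low light.

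Genes of phosphate starvation, a response in which some plant non-coding RNAs act as decoys for a microRNA, were listed for comparison. Of 12 tested, 3 rose and 9 fell from T0 to CIM (median -1.02), 2 rose and 3 fell to day 4 of SIM, and 1 rose and 4 fell to day 8. Of all loci tested, 39.1% rose and 40% fell from T0 to CIM, and the shares in the other contrasts are given above. High light called 0 higher and 4 lower on CIM, 0 and 3 at day 4, and 2 and 1 at day 8. In hy5-2, 4 were higher and 0 lower at T0, 1 and 0 on CIM, 4 and 1 at day 4, and 2 and 2 at day 8 (edgeR). PHO2, the ubiquitin-conjugating enzyme gene that miR399 represses, fell by 0.66 ± 0.06 from T0 to CIM and rose by 1.11 ± 0.06 to day 4 of SIM. The phosphate exporter gene PHO1 fell by 5.77 ± 0.12 from T0 to CIM.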

How the data were processed

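RNA-seq libraries from 11 groups of 3 were analysed. Per the labels' protocols, total RNA was made into libraries with the KAPA Stranded mRNA-Seq kit. The deposited table holds the authors' raw read counts per locus, and per the submitters' processing notes STAR, SAMtools, bedtools and edgeR were used with the TAIR10 build, without versions. The labels do not say whether the 3 libraries of a group came from separate cultures, so p-values measure the spread between these samples, which may be technical. Locus starts in the table count from 0 and are printed from 1.

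The count test was edgeR 4.0.16 (R 4.3.3): TMM scaling, filterByExpr (minimum count 10, minimum total 15), 1 coefficient per group over all 33 libraries, a robust quasi-likelihood fit, two-sided tests and Benjamini-Hochberg adjustment over 20842 loci at a threshold of 0.05. A self-test on counts simulated from this fit was also run. Ratios of a member to its overlapping coding locus were tested with limma 3.58.1 on log2((member + 0.5)/(partner + 0.5)) over 190 pairs with at least 10 counts. Replicate correlation was 0.985 to 0.994, with a common biological coefficient of variation of 0.0745.

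The named loci were the 10 largest members, the 7 with a symbol, and per contrast the largest called changes with at least 1 CPM and 3 against 3 libraries apart: up to 3 rises and 3 falls among members that overlap no locus, up to 2 of each among those that overlap a coding locus, and up to 2 of each for called ratios. The members, gene lists and tests were chosen with earlier results of these data known. A gene of the RNA decay list is not reported here and was left out of its counts. Sequences and coordinates of windows are from RefSeq TAIR10.1, in which 3895 of 3903 transposable element loci had the same ends as in the table, and all 200 members matched by locus name. A mismatch search and exact motif search used Biopython 1.88 and Python 3.11.15. DESeq2 1.42.0 was an alternative.

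Replicate numbers came from the labels. Same-numbered libraries deviated together (all 3 correlations over 0.1) in 6 of the 10 contrasts: SIM4 against CIM4, SIM8 against SIM4, light at SIM4, and hy5-2 at T0, CIM4 and SIM4. For light at CIM4 and SIM8 the correlations were 0.0948 to 0.160 and 0.0486 to 0.205. There the same-numbered library was still the best match for 3 of 3 libraries. For hy5-2 at SIM8 it was for 2 of 3, and for CIM4 against T0 for 0 of 3. The main tests use no pairing. Counting intervals and floors cover counting error only. Alternatives were RLE scaling, other filters, the replicate block, a choice of members by mean CPM, other pair settings and leaving out each library in turn.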

Additional observations from a re-analysis of the deposited data

Results flagged for a closer look

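Among the named loci, the effect of high light in Col-0 or of hy5-2 in high light differed between CIM and day 8 of SIM for 33 tests of that change itself (edgeR's quasi-likelihood test with Benjamini-Hochberg adjustment; day 8 minus CIM, log2 with SE). The light and hy5-2 effects share the Col-0 high-light libraries. The named loci, 55 in all, were chosen in part by large called changes in these same contrasts. The 33 are therefore a list and do not measure how common such a change is. Of all loci tested, 10.6% were called for the change of the light effect and 12.9% for that of the hy5-2 effect.

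Of the members free of coding loci, the light effect moved up by 2.08 ± 0.29 (adjusted p = 1.21e-05) for AT4G13495 and down by -1.28 ± 0.13 (adjusted p = 4.22e-08) for AT2G14878. The hy5-2 effects of the same loci moved the opposite way, by -1.88 ± 0.38 and 1.17 ± 0.12. ZPR4 (AT2G36307) moved by 0.83 ± 0.22 with light and -1.44 ± 0.22 with hy5-2. TAS3 (AT3G17185) moved by 0.83 ± 0.22 and TAS2 (AT2G39681) by -0.46 ± 0.12 with light, and TAS1B (AT1G50055) by -0.65 ± 0.18 with hy5-2. AT1G04425 moved by 0.83 ± 0.18 and AT1G11185 by -0.83 ± 0.21 with light. AT1G78865 moved by 0.42 ± 0.13 and -0.43 ± 0.13, and AT1G31935 by -0.78 ± 0.21 and 0.85 ± 0.20, for light and hy5-2 in that order.

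For the members over a coding locus, the change of the coding locus stands after that of the member. Light effects moved by -1.35 ± 0.26 for AT3G12502 (-1.27 for HCHIB), 1.06 ± 0.26 for AT5G60022 (1.05 for LAC17), 1.34 ± 0.38 for AT2G23672 (1.36 for YCF37) and -0.73 ± 0.11 for AT4G38545 (-0.75 for AT4G38540). They moved by 0.93 ± 0.17 for AT5G15845 (1.03 for COL1), 0.70 ± 0.17 for AT2G31751 (0.69 for UGT74D1), -0.89 ± 0.18 for AT2G26355 (-0.64 for AT2G26360) and 0.73 ± 0.22 for AT1G17232 (0.17 for AT1G17230). The last 2 coding loci were not called (adjusted p of 0.0653 and 0.557).

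The hy5-2 effects moved by 1.28 ± 0.27 for AT3G12502 (1.39 for HCHIB), 0.65 ± 0.11 for AT4G38545 (0.67 for AT4G38540), -0.57 ± 0.17 for AT5G15845 (-0.66 for COL1) and 0.52 ± 0.15 for AT5G01215 (0.52 for AT5G01210). They moved by -0.56 ± 0.12 for AT5G01595 (-0.57 for FER1), 0.48 ± 0.11 for AT1G28685 (0.46 for AT1G28680), 0.46 ± 0.15 for AT2G37362 (0.48 for ABCG2) and -0.51 ± 0.12 for AT1G50659 (-0.45 for AT1G50660). For AT4G37432 the change was -0.53 ± 0.18, and for its partner AT4G37430 it was -0.52 (adjusted p = 0.0505). The value of -4.11 ± 0.80 for AT3G51238 rests on 3 counts in the hy5-2 libraries of day 8 and is no bound.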

How the results depend on the processing

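Of 100 alternative counts other than those without a library, 94 stayed within 1.5 times the reported one. With only pairs that overlap by at least 50%, the ratio test called 16 pairs between CIM and T0, 1 for light on CIM, and 0, 0 and 1 for hy5-2 at T0, on CIM and at day 8. Fewer pairs were then tested. With a pseudocount of 2 it called 3 for hy5-2 at day 4, and the cause was not tested.

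Without 1 library in turn, members called ranged from 150 to 154, 74 to 86 and 25 to 31 for the 3 steps of culture, 13 to 18, 22 to 28 and 51 to 63 for light, and 2 to 12, 23 to 34, 29 to 35 and 37 to 48 for hy5-2. Called ratios ranged from 23 to 27, 1 to 6, 0 to 0, 0 to 1, 0 to 2, 1 to 6, 0 to 3, 1 to 1, 3 to 4 and 3 to 5 in the same order. Between day 4 of SIM and CIM the 6 called ratios became 1 without the third day-4 library, and 2 without the second day-4 or the second or the third CIM library. The 4 for light at day 8 became 1 without the first low-light and 2 without the second high-light library. The 6 for hy5-2 at day 4 became 3 without the third Col-0 or the second hy5-2 library, and the 3 at day 8 became 5 without the third Col-0 or first hy5-2 library.

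With the replicate block, members called in the 6 contrasts with all 3 same-numbered correlations over 0.1 were 90 for SIM4 against CIM4, 39 for SIM8 against SIM4, 36 for light at SIM4, and 9, 41 and 44 for hy5-2 at T0, CIM4 and SIM4. In the other 4 contrasts they were 157 for CIM4 against T0, 24 and 73 for light at CIM4 and SIM8, and 54 for hy5-2 at SIM8. None of the 149 calls of named loci was lost with the block. RLE scaling and a filter at 1 CPM also kept 149, DESeq2 kept 145 and no filter on low counts 140. Leaving out libraries kept 116 in every repeat and lost 33 in at least 1, and 0 were reversed. With 3 libraries a group, counts in the single digits in at least 1 library limit AT3G51238 in cultured hy5-2 and in Col-0 in low light on CIM and SIM, and AT3G61118 at T0. Counts of this size also limit AT3G06125 in hy5-2 on SIM and in Col-0 in low light on CIM and at day 8. They likewise limit AT4G13495 in hy5-2 on SIM and AT3G12502 in Col-0 at T0.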
